A study of Homo sapiens with 6 samples.

Results

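The genes described here were read at or near 0 in control PC9 cells and were counted in every library after tsRNA-5001a was blocked. They were chosen by 2 thresholds on the gene counts: at most 1 count in each control library and at least 10 counts in each knockdown library. Rows whose symbols begin with ZNF, RFPL4, FRG2, HBA, SNOR or RNU, and ZIK1 and ABCB1, were left aside. Of 58174 rows, 35 genes met the rule. Because the rule reads the contrast between knockdown and control, the values of these 35 genes are a description of the selection and carry no test.

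PC9 is an established human lung adenocarcinoma cell line. The knockdown group was 3 libraries of PC9 cells given an antagomir, a chemically modified antisense oligonucleotide that blocks a small RNA, against tsRNA-5001a, a short fragment of a transfer RNA. The control group was 3 libraries of PC9 cells given a negative control antagomir. All libraries came from the same line, no other allele or agent is named in the labels, and neither a dose nor a time after treatment is stated there. The tsRNA is not measured by gene counts, so its level was not checked.

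Total counts were 32342017 to 40066223 per knockdown library and 34623672 to 39615278 per control library. The epithelial markers EPCAM and KRT7 were high in all 6 libraries, at 175 to 265 and 2080 to 2420 CPM in knockdown and at 191 to 237 and 2390 to 2560 CPM in control. CPM is the count scaled to the library total after TMM adjustment, in the usual unit. The lung marker SFTPB was at 0 in 5 libraries and at 2 counts in control library 3. NKX2-1, a lung lineage factor, had 34, 31 and 24 counts in knockdown and 3, 12 and 0 in control. Whether each library is a separate culture is not stated, so the p-values below speak only to the spread among these 6 libraries, which may be technical. In bulk RNA, a low level in all cells and expression in a few cells cannot be told apart.

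A differentiated cell keeps most tissue-restricted genes closed. DNA methylation, histone H3 lysine 9 methylation and Polycomb complexes are the best known systems that hold such genes shut, and the activators that would open them are often missing. Genes of this kind include neuropeptides, hair proteins and developmental transcription factors. Many long noncoding RNAs and pseudogenes are as restricted as these.

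Sequences are shown for the promoters of the 4 members with a TATA box wholly within the 100 bases before the start, and for a pair of GC-rich ones, since these differ in base composition among genes that share 1 count pattern. Each line gives the 100 bases before the RefSeq start (GRCh38.p14), 5′ to 3′ on the strand of the gene. Capitals mark the TATA box (TATAAA), the cyclic AMP response element half-site (TGACG) and the GC box (GGGCGG), on either strand.
VIP, chr6:152750697-152750796, plus strand: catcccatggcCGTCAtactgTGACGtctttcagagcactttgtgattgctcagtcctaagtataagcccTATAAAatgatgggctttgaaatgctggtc
NPPC, chr2:231926397-231926496, minus strand: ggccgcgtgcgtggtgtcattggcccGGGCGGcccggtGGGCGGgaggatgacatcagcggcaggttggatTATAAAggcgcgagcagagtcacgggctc
KRTAP2-4, chr17:41065880-41065979, minus strand: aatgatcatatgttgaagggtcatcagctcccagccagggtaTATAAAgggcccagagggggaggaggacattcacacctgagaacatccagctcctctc
KRTAP4-11, chr17:41118374-41118473, minus strand: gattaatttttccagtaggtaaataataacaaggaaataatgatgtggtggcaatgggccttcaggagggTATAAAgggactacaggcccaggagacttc
POU3F1, chr1:38046794-38046893, minus strand: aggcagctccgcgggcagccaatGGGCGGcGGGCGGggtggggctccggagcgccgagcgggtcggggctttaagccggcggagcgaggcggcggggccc
ZCCHC12, chrX:118823724-118823823, plus strand: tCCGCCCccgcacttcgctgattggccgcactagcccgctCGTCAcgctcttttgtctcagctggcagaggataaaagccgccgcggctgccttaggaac

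In VIP a TATA box lay 30 to 25 bases before the start, with others at 157 to 152 and 147 to 142 bases. In NPPC it lay at 29 to 24 bases, in KRTAP4-11 at 30 to 25 and in KRTAP2-4 at 58 to 53. A further match, in MIR7-3HG, spans the start itself. VIP also held a pair of half-sites, at 89 to 85 and 79 to 75 bases before the start. RefSeq promoter windows, from 250 bases before to 50 after the start, were matched for 16 of the 35 genes. A TATA box was in 5 of the 16 (31.2%), in 11.5% of all 35116 windows and in 18.5% of 4922 windows of other genes silent in control. The half-site was in 4 of the 16 (25.0%), in 24.6% of all windows and in 17.8% of windows of other silent genes. The GC box was in 6 of the 16 (37.5%), in 45.0% of all windows and in 25.8% of windows of other silent genes. These shares rest on 16 windows, and neither a match nor its absence says anything about binding. The RefSeq starts of NPHS1 and SPX lay 16783 and 1645 bases from the start of the counted gene. Both are kept among the 16, and SPX is among the 6 with a GC box.

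The promoters were mixed in CpG content, the ratio of observed to expected CG dinucleotides that separates CpG-island promoters from CpG-poor ones. The ratio reached 0.6 in 6 of the 16 windows (37.5%), in 49.1% of all windows, in 25.2% of windows of other silent genes and in 68.5% of windows of genes not silent in control. The SPX window, away from the start of the counted gene, is among the 6 with a ratio of 0.85. The POU3F1 window was 82.3% G and C with a ratio of 1.06, and that of NPPC was 73.0% with a ratio of 0.85. The VIP window was 37.3% G and C with a ratio of 0.19, and that of KRTAP4-11 was 40.7% with a ratio of 0.0.

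Of 30219 rows that were silent in control, with at most 1 count in each control library, 44 reached 10 counts in each knockdown library, which is 0.146%, and 35 of these remained after the named exceptions. The exceptions were 9 rows, namely FRG2, FRG2B, FRG2EP, HBA1, HBA2, ABCB1, ZNF471, ZNF582 and ZIK1. In the opposite direction, of 27824 rows with at most 1 count in each knockdown library, 3 reached 10 counts in each control library, which is 0.0108%. They were the small nuclear and nucleolar RNA genes RNU2-2P and SNORD118 and the transcript AC008982.1. The excess on the knockdown side was present at lower thresholds too: 424 rows against 55 at 2 counts, and 120 against 4 at 5 counts. At 20 counts there were 21 rows on the knockdown side and 1 on the control side.

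**Figure D1:**
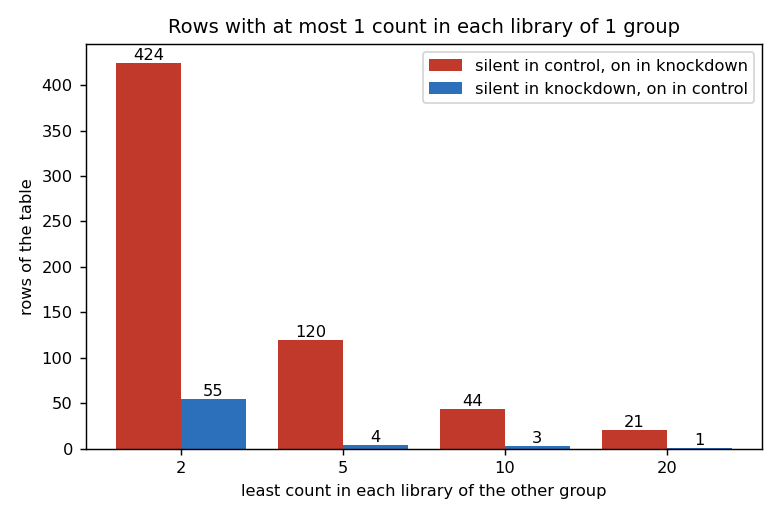
Number of table rows (vertical axis) with at most 1 count in each library of 1 group and at least the count on the horizontal axis in each library of the other group. At each minimum more rows were on in knockdown alone (424, 120, 44 and 21) than in control alone (55, 4, 3 and 1).

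The 35 genes were 14 protein-coding genes, 16 long noncoding RNA genes, 4 pseudogenes and 1 microRNA gene, on 16 chromosomes. Among rows silent in control, 3879 were protein-coding (12.8%), 9111 long noncoding (30.1%) and 10577 pseudogenes. Of the 35 genes, 45.7% were long noncoding and 11.4% pseudogenes. The share of silent rows that met the rule was 0.361% for protein-coding genes, 0.176% for long noncoding genes and 0.0378% for pseudogenes. The silent rows here include symbols that the rule leaves out. With the named exceptions kept, 22 protein-coding genes, 16 long noncoding genes and 5 pseudogenes passed the thresholds, so the exceptions lower mainly the protein-coding share. No chromosome held more than 4 of the genes, and chromosomes 1 and X held 4 each. More than 1 exon was annotated for 26 genes, and 9 had a single exon.

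All of these genes were weakly expressed after knockdown. Summed over the 35 genes there were 1137, 1130 and 1472 counts in knockdown libraries 1 to 3, against 4, 1 and 2 in control libraries 1 to 3. Mean CPM in knockdown ran between 0.329 and 4.24 with a median of 0.688, and 27 of the genes were under 1 CPM. On the length-corrected TPM scale deposited by the authors, the means ran between 0.0894 and 6.61 with a median of 0.755. In control, 31 genes were at 0 in every library, and the other 4 had 1 count in at least 1 library. Against a limit of 3 counts over the control group, which covers counting error only, the 31 genes were at least 11.9-fold to 154-fold higher in knockdown, with a median of 24.2. The least of these limits was 11.9 and belonged to genes near 10 counts, so it reflects the threshold.

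**Figure D2:**
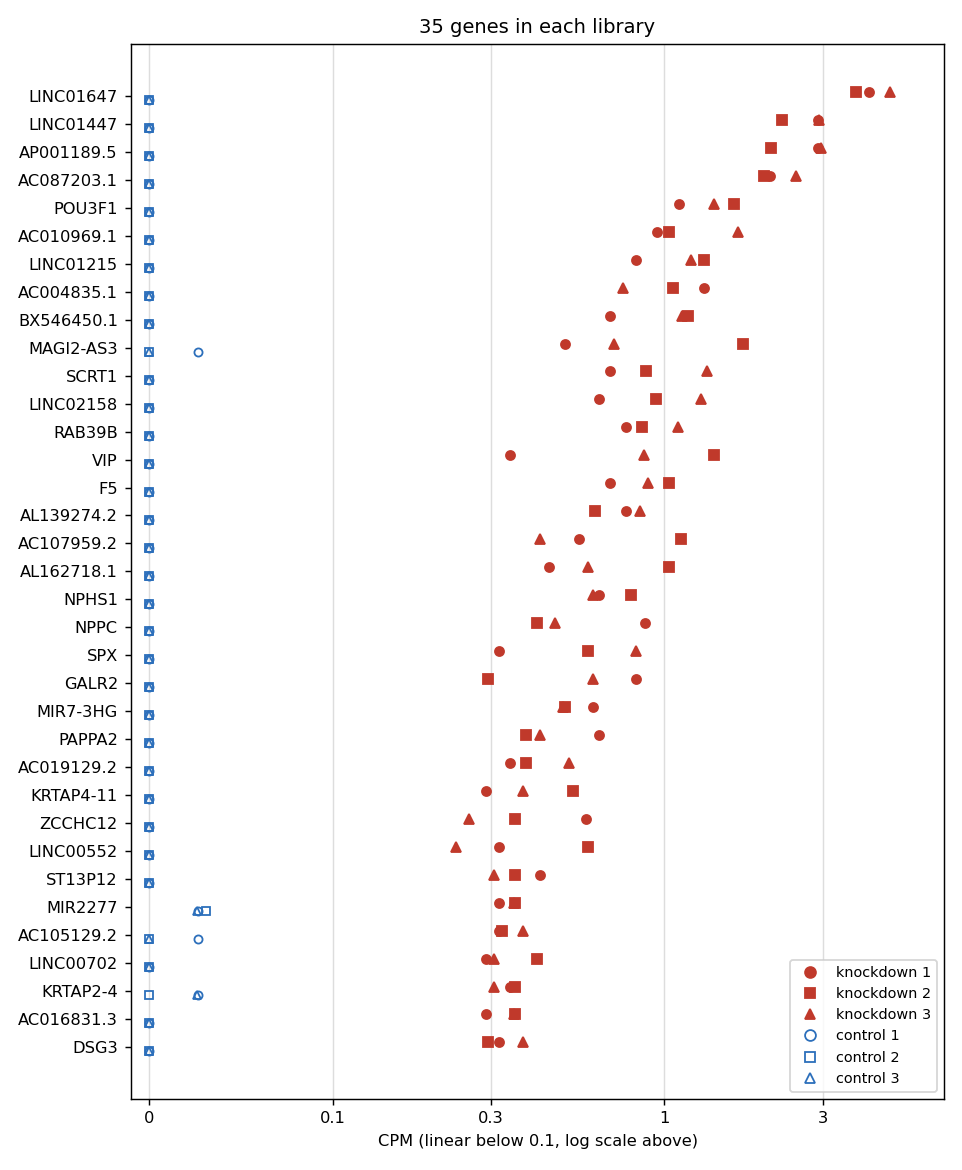
CPM of each of the 35 genes in each library, with the axis linear below 0.1 and on a log scale above, ordered by mean knockdown CPM, which is not corrected for gene length. Filled symbols are knockdown libraries and open symbols are control libraries. Control libraries sit at 0 for 31 genes, and MAGI2-AS3, AC105129.2, KRTAP2-4 and MIR2277 have a control library at 1 count.

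Genes of peptide signalling make a group of their own among the protein-coding members. VIP, which encodes vasoactive intestinal peptide, a neuropeptide that relaxes smooth muscle and dilates vessels, had 13, 48 and 37 counts in knockdown libraries 1 to 3, against 0 in each control library. This was 0.343, 1.41 and 0.868 CPM, so library 1 was the lowest and library 2 the highest, and all were above the control libraries. NPPC, which encodes C-type natriuretic peptide, a regulator of bone growth and vessel tone, had 33, 14 and 20 counts in knockdown and 0 in each control library. Library 1 was the highest for NPPC and the lowest for VIP. SPX encodes spexin, a peptide hormone that acts through galanin receptors. It had 12, 20 and 35 counts in knockdown, against 0 in each control library. GALR2, a galanin receptor that spexin also binds, had 31, 10 and 26 counts in knockdown, against 0 in each control library, and it overlaps ZACN on the same strand. Library 1 was the lowest for SPX and the highest for GALR2, so the ligand and the receptor did not follow each other over the 3 libraries.

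The counterparts of these peptides were measured without any part in the choice of genes. VIPR1, a VIP receptor, was at 3.99 ± 0.245 CPM in knockdown and 2.87 ± 0.0827 CPM in control (SD, n = 3 each), and edgeR's quasi-likelihood test over all genes gave an adjusted p of 0.266. VIPR2, the other VIP receptor, and the related peptide gene ADCYAP1 were at 0 in all libraries. NPR2, the signalling receptor of C-type natriuretic peptide, was at 4.60 CPM in knockdown and 6.45 CPM in control, with an edgeR adjusted p of 0.224. NPR3, the clearance receptor, was at 3.02 CPM in knockdown and 1.69 CPM in control, with an edgeR adjusted p of 0.389. Neither natriuretic peptide receptor passed the test. GAL, the gene of galanin, was at 10.5 CPM in knockdown and 14.8 CPM in control, with an edgeR adjusted p of 0.192. GALR3 had 15, 0 and 10 counts in knockdown and 2, 0 and 0 in control, and GALR1 was at 0 throughout.

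Secreted and surface proteins formed a second group. F5 encodes coagulation factor V, made mostly in liver and megakaryocytes as the cofactor that speeds thrombin formation. It had 26, 35 and 38 counts in knockdown libraries, against 0 in each control library, and was at 0.869 ± 0.173 CPM in knockdown. PAPPA2 encodes a secreted metalloprotease that cleaves the insulin-like growth factor binding proteins IGFBP3 and IGFBP5. It had 24, 13 and 18 counts in knockdown, against 0 in each control library. With a mean of 0.0894 TPM, PAPPA2 had the lowest length-corrected level of the 35 genes. NPHS1 encodes nephrin, the adhesion protein of the slit diaphragm between kidney podocytes. Its counts of 24, 27 and 26 in knockdown were close to each other, against 0 in each control library. DSG3, a desmosomal cadherin of stratified epithelium, stood closest to the lower count limit, at 12, 10 and 16 counts in knockdown and 0 in each control library.

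Of the partners of these proteins, STC2, which encodes stanniocalcin 2, an inhibitor of the related protease PAPPA, rose to 122 ± 5.80 CPM in knockdown, against 81.6 ± 0.906 CPM in control (SD, n = 3 each). The log2 difference was 0.58, edgeR's quasi-likelihood adjusted p was 0.0488, and it passed under 2 of 11 other settings, with an adjusted p of 0.00504 to 0.229, and in none of the fits without 1 library. IGFBP5 was at 161 CPM in knockdown and 101 CPM in control, which missed the threshold with an edgeR adjusted p of 0.0761. PAPPA, the paralog of PAPPA2, was at 3.17 CPM in knockdown and 1.38 CPM in control, and also missed it, with an edgeR adjusted p of 0.0701. Like STC2, both passed under 2 of 11 other settings, scaling by library size alone and DESeq2, with adjusted p of 0.0104 to 0.238 for IGFBP5 and 0.0109 to 0.25 for PAPPA. IGFBP3 was at 426 ± 124 CPM in knockdown and 322 ± 56.1 CPM in control, with an edgeR adjusted p of 0.414. LMAN1 and MCFD2, which carry factor V out of the endoplasmic reticulum, were at 136 and 209 CPM in knockdown and at 122 and 195 CPM in control. DSG2, the desmosomal cadherin of simple epithelium, was at 203 CPM in knockdown and 187 CPM in control, with an edgeR adjusted p of 0.726. DSG1, a desmosomal cadherin of the epidermis, was at 0 in all libraries. Over all partner genes, 32 of 47 were tested, 1 was higher and 0 were lower, with a median log2 fold change of 0.20. Of all tested genes 1.17% passed, with a median of 0.05. The partner list was drawn up after the members were known.

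Regulators of transcription and of vesicle traffic made a further group. POU3F1, also known as OCT6, is a POU-domain factor of Schwann cells and keratinocytes. It had 42, 55 and 60 counts in knockdown libraries, against 0 in each control library, and its 1.38 ± 0.256 CPM made it at least 49.3-fold higher. Its paralogs POU3F3 and POU3F4 were at 0 in all libraries, and POU3F2 had 4, 0 and 4 counts in knockdown and 2, 1 and 2 in control. SCRT1, a neuronal zinc-finger repressor of the Snail superfamily, had 26, 30 and 57 counts in knockdown and 0 in each control library. Its paralog SCRT2 was at 0 throughout. The related repressor SNAI2 was 0.86 higher on the log2 scale in knockdown, and edgeR's adjusted p was 0.0692, with 0.00554 to 0.268 over 11 other settings, 2 of which called it. SNAI1 was at 23.0 CPM in knockdown and 15.1 CPM in control, with an edgeR adjusted p of 0.153. RAB39B, a Rab GTPase of neurons that is mutated in X-linked intellectual disability with parkinsonism, had 29, 29 and 47 counts in knockdown, against 0 in each control library. ZCCHC12, a zinc-finger coactivator of bone morphogenetic protein signalling in brain, had 22, 12 and 11 counts in knockdown, against 0 in each control library.

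Keratin-associated proteins cross-link the keratin filaments of the hair shaft, and their genes stand in dense clusters. KRTAP4-11 had 11, 18 and 16 counts in knockdown, against 0 in each control library. KRTAP2-4 had 13, 12 and 13 counts in knockdown, against 1, 0 and 1 in control, a ratio of 17.9 with a 95% counting interval of 4.63 to 153. The rule itself holds this ratio high, so the interval covers counting error only and is no test. These genes are near copies of others: 52.6% of the 50-base windows of KRTAP2-4 and 22.5% of those of KRTAP4-11 occur in another gene, so their counts are uncertain. Both lie in the chromosome 17 cluster. On that chromosome 28 of 34 protein-coding KRTAP genes were silent in control, and 6 of the 28 had at least 2 counts in each knockdown library, among them KRTAP2-4 and KRTAP4-11, which were chosen for such counts. On chromosome 21 all 49 were silent in control and 0 had 2 counts in each knockdown library, with 46 at 0 in all 3. Over all rows silent in control, 1.4% had at least 2 counts in each knockdown library, and over protein-coding ones 3.79%.

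KRTAP2-3, which neighbours KRTAP2-4 at a distance of 5002 bases, was not chosen because control library 1 had 3 counts. It had 89, 55 and 105 counts in knockdown and 3, 0 and 1 in control. On the log2 scale it was 5.74 higher in knockdown (SE 0.59), and edgeR's adjusted p was 0.00464. Of the 50-base windows of KRTAP2-4, 45.6% occur in KRTAP2-3, so reads could be divided between them, and the pair are not independent. KRTAP3-1 had 22, 15 and 14 counts in knockdown and 0, 0 and 2 in control, with an edgeR adjusted p of 0.0614. Of 10 keratin genes tested in the same region 0 passed in edgeR, 7 with a log2 fold change above 0 and 3 below. KRT34, a hair keratin gene, had 28, 39 and 49 counts in knockdown and 3, 14 and 12 in control, with an edgeR adjusted p of 0.159. KRT13 had 129, 74 and 157 counts in knockdown and 66, 48 and 39 in control, with an edgeR adjusted p of 0.142. KRT19, KRT15 and KRT10 had log2 fold changes of -0.18, -0.02 and -0.10.

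**Figure D3:**
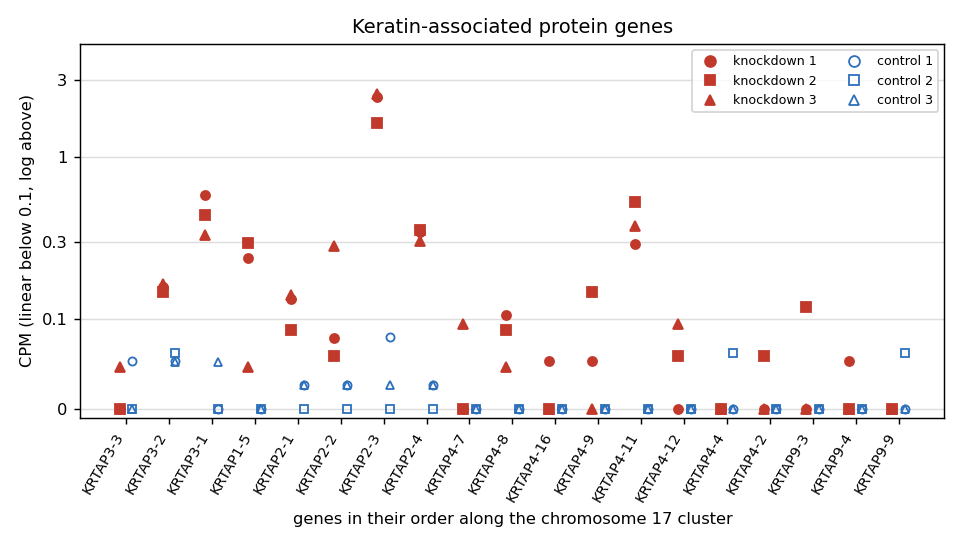
CPM of keratin-associated protein genes with any count, in their order along the chromosome 17 cluster, with the axis linear below 0.1 and on a log scale above; filled symbols are knockdown libraries and open symbols are control libraries. KRTAP2-3 is the highest, at 1.62 to 2.46 CPM in knockdown, and several members of the KRTAP4 and KRTAP9 groups have counts in single libraries only.

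The noncoding genes LINC01647, LINC01447 and AP001189.5 held the highest counts of the 35. LINC01647 had 157, 129 and 204 counts in knockdown libraries, against 0 in each control library, and was at least 154-fold higher. Its level of 4.24 ± 0.503 CPM varied little between the knockdown libraries. LINC01447 had 110, 77 and 125 counts and AP001189.5 had 110, 71 and 126 counts in knockdown, both against 0 in each control library. AC087203.1, a processed pseudogene, had 79, 68 and 106 counts in knockdown and 0 in each control library, but 35.9% of its 50-base windows occur in other genes, most of them in USP17L4. The files give no function for these transcripts. Corrected for length, LINC01647 stood at 6.02 TPM, BX546450.1 at 3.76 TPM and AP001189.5 at 3.40 TPM in knockdown.

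Other noncoding members were lower. MAGI2-AS3, an antisense transcript of the scaffold gene MAGI2, had 19, 59 and 30 counts in knockdown and 1, 0 and 0 in control. Its CPM had the widest spread of all members, while its TPM, at 0.972, 1.18 and 0.701 in knockdown libraries 1 to 3, varied less. MIR7-3HG, the host transcript of the microRNA gene MIR7-3, had 23, 17 and 21 counts in knockdown and 0 in each control library. AC010969.1, LINC01215, AC004835.1, BX546450.1 and LINC02158 were at 1.21, 1.11, 1.04, 0.996 and 0.955 CPM in knockdown and at 0 in control. AL139274.2 and AC107959.2 were at 0.742 and 0.698 CPM in knockdown and at 0 in control. AL139274.2, AC107959.2, AC010969.1, LINC02158 and AC019129.2 are annotated as antisense genes. No source states whether counting used strand, so reads from sequence that an antisense gene has in common with another transcript cannot be told apart. Of the 50-base windows of AC019129.2, 47.4% occur in PPM1B, on either strand. The share in any other gene was 1.1% for AL139274.2 and AC107959.2, 3.8% for LINC02158 and 0.0% for AC010969.1. Unspliced reads of an overlapping gene are not covered by these shares.

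MIR2277 and MIR7-3HG bear on microRNAs, and the mature sequences from RefSeq (GRCh38.p14) are shown because the seed, bases 2 to 8 and here in capitals, sets which messages a microRNA pairs with. The seeds of the 3 differ.
hsa-miR-2277-5p: aGCGCGGGcugagcgcugccaguc
hsa-miR-2277-3p: uGACAGCGcccugccuggcuc
hsa-miR-7-5p: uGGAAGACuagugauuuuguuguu

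MIR2277 had 12, 12 and 15 counts in knockdown, against 1 in each control library, a ratio of 12.3 with a 95% counting interval of 3.89 to 62.0. Here too the rule holds the ratio high, and the interval covers counting error only and is no test. MIR2277 lies inside FAM172A on the same strand, and all of its 50-base windows occur in transcripts of FAM172A. FAM172A was at 12.9 ± 4.92 CPM in knockdown and 12.8 ± 0.264 CPM in control (SD, n = 3 each), with a log2 fold change of 0.01. MIR7-3 itself, inside MIR7-3HG, had 0 counts in all libraries. HNRNPK, the host gene of MIR7-1, was at 736 CPM in knockdown and 767 CPM in control, with an edgeR adjusted p of 0.815. Gene counts of this kind do not measure mature microRNAs, so the values are for the locus only.

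The knockdown libraries differed among themselves gene by gene. The coefficient of variation of CPM over the 3 libraries ran between 6.06% for MIR2277 and 67.5% for MAGI2-AS3, with a median of 21.9%. The rule asks for 10 counts in each of these libraries, which limits the spread that a member can show. Library 1 was the lowest of the 3 for 18 genes, library 2 for 9 and library 3 for 8. The highest was library 2 for 15 genes, library 3 for 13 and library 1 for 7. In 25 genes the highest knockdown CPM was at most 2 times the lowest. The median ratio of a library to a gene's own knockdown mean was 0.875, 0.985 and 1.03 in libraries 1 to 3.

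**Figure D4:**
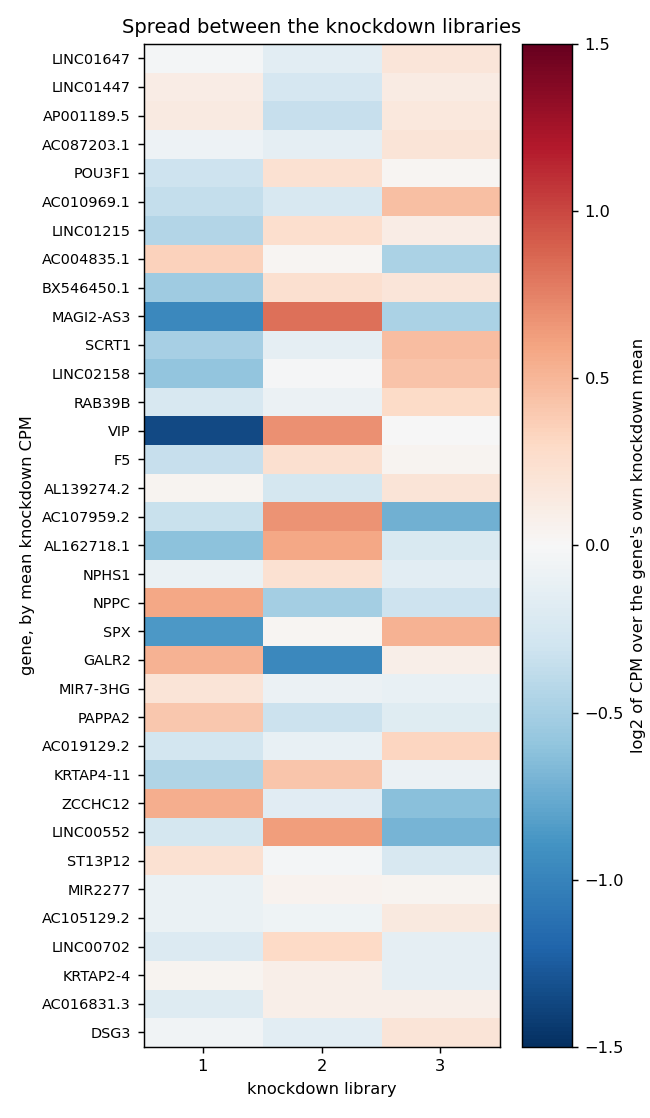
Log2 of the CPM in each knockdown library over the gene's own knockdown mean, for the 35 genes in order of mean CPM; red is above and blue below the mean. VIP and MAGI2-AS3 are low in library 1 and high in library 2, while GALR2 is low in library 2.

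The transcript behind a count could be read from the deposited TPM, since TPM divides counts by transcript length. For LINC01647 the length per count came to 1288, 1285 and 1286 bases in knockdown libraries 1 to 3, and the annotated transcript has 1285. For PAPPA2 it was 9494, 10093 and 9711 bases, near its longest transcript of 9691. F5 differed by library: 7030 bases in library 1, near its longest transcript of 7039, but 1601 in library 2 and 1883 in library 3. NPHS1 came to 4288, 3493 and 2652 bases, against a longest transcript of 4276. In those 2 genes the authors' estimate thus gave shorter transcripts more weight in some libraries, and similar counts in 3 libraries do not mean the same transcript.

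The choice was repeated with each library left out, so that its counts had no part in it. Without knockdown library 1 the rule chose 54 genes, and 35 of them (64.8%) had at least 10 counts in library 1, where 0.497% of all 27759 rows silent in control, the named exceptions left out, did. Without library 2 it chose 66, of which 53.0% reached 10 counts in library 2, beside 0.472% of the silent rows. Without library 3 it chose 49, of which 71.4% reached 10 counts in library 3, beside 0.67%. On the control side, without control library 1, 2 or 3 the rule chose 63, 46 and 62 genes, and 55.6%, 76.1% and 56.5% of these had at most 1 count in the library left out. Of all 17288 rows with at least 10 counts in each knockdown library, the named exceptions left out, 0.665%, 1.01% and 0.729% did. Among the genes so chosen the left-out control libraries reached 13, 104 and 133 counts at most. So between 49 and 66 genes were chosen with a knockdown library left out and between 46 and 63 with a control library left out. That 35 genes of each list met the limit in the left-out library follows from the rule, so the size of each list is what varies. The silent rows set beside them needed no counts in the other knockdown libraries. Of the 30219 silent rows, exceptions included, 25974 had at most 1 count in every library. The rows set beside the control lists likewise did not have to be silent in the other control libraries. The gap between these shares is thus no test of the lists.

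The thresholds cut through a continuous range. Just inside them stood 11 genes, among them MAGI2-AS3, GALR2, KRTAP4-11, ZCCHC12 and LINC00552, with a control count of 1 or a lowest knockdown count of 10 or 11. Just outside were 38 rows, 22 with a control library at 2 and 16 with a lowest knockdown count of 8 or 9. AC087203.2 had 56, 54 and 75 counts in knockdown and 0, 0 and 2 in control. AC009549.1 had 37, 30 and 36 counts in knockdown and 0, 0 and 2 in control. The limits by themselves place all 3 knockdown libraries above all 3 control libraries in these rows, as in the members. CFTR, the chloride channel gene mutated in cystic fibrosis, had 35, 26 and 32 counts in knockdown and 2, 0 and 0 in control. A2MP1 had 22, 39 and 25 counts in knockdown and 0, 2 and 0 in control. A row for the U1 small nuclear RNA had 35, 15 and 53 counts in knockdown and 0, 1 and 2 in control.

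Neighbouring genes, which the rule did not choose, were compared next. The genes that overlap a member, and the nearest tested gene on each side within 100 kb, came to 60 genes, of which 54 were tested. In edgeR's quasi-likelihood test 4 of the 54 (7.41%) passed an adjusted p of 0.05, all higher in knockdown, while 1.17% of all 19040 tested genes passed (1.1% higher and 0.0735% lower). The median log2 fold change was 0.05 in the neighbours and 0.05 in all tested genes. Most neighbours thus did not pass the test, and their typical difference was that of all genes. Of those that passed, KRTAP2-3 and AC087203.2 had at most 3 and 2 counts in a control library, so they could hardly have passed as lower. KRTAP2-3 may share reads with KRTAP2-4, which has 45.6% of its 50-base windows in KRTAP2-3. AC107959.3 overlaps AC107959.2, but only 1.1% of the windows of AC107959.2 occur in any other gene, unspliced reads aside. AC087203.1, beside AC087203.2, has 35.9% of its windows in other genes, and the part in AC087203.2 was not read separately. The share that passed is therefore not independent of the choice of members.

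**Figure D5:**
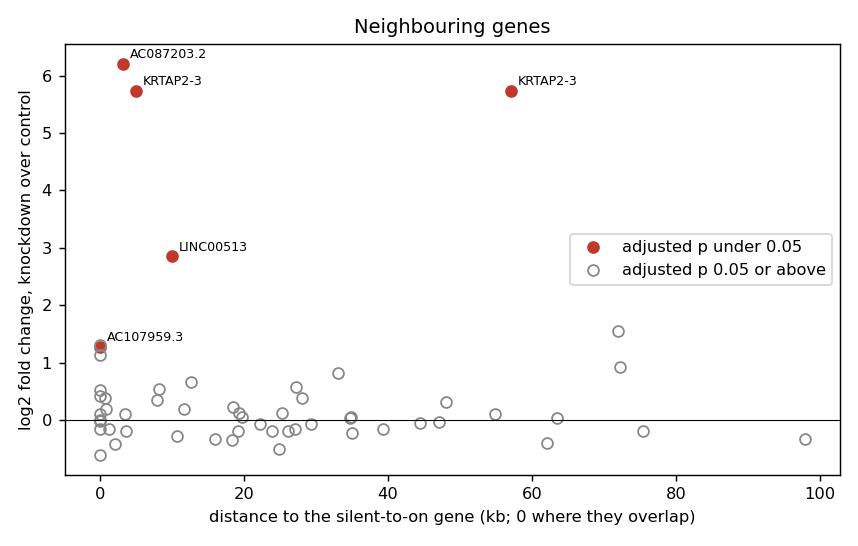
Log2 fold change (knockdown over control) of tested neighbours against their distance from the gene they neighbour, in kb, with 0 for overlapping genes. Filled points passed an edgeR adjusted p of 0.05. AC087203.2, KRTAP2-3 (drawn once for each of the 2 members it neighbours) and LINC00513 stand at 6.21, 5.74 and 2.86, and the highest point that did not pass is DISP3 at 1.55.

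Besides KRTAP2-3, the neighbours that passed were AC087203.2, LINC00513 and AC107959.3. LINC00513, 9995 bases from AC016831.3 on the opposite strand, was at 3.14, 2.68 and 2.86 CPM in knockdown and at 0.561, 0.279 and 0.340 CPM in control. On the log2 scale it was 2.86 higher in knockdown (SE 0.31), and edgeR's adjusted p was 0.00638. AC087203.2, a pseudogene 3133 bases from AC087203.1 on the same strand, was at 1.48, 1.59 and 1.76 CPM in knockdown and at 0, 0 and 0.0523 CPM in control, with an edgeR adjusted p of 0.00556. AC107959.3, which overlaps AC107959.2 on the opposite strand, was at 6.20, 5.50 and 4.76 CPM in knockdown and at 2.46, 2.29 and 2.04 CPM in control. Its edgeR adjusted p was 0.0296, and it passed under 3 of 11 other settings, with the call lost in every fit that left out 1 library, while KRTAP2-3 and LINC00513 passed under all 11 and AC087203.2 under 10, all but the replicate block.

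Other neighbours did not pass in edgeR. MAGI2, a scaffold protein gene, was at 4.70 CPM in knockdown and 2.13 CPM in control, with an edgeR adjusted p of 0.154 and a DESeq2 adjusted p of 0.034. DESeq2 called 6 of the 54 neighbours. CCDC13, which overlaps LINC02158, was at 1.01 CPM in knockdown and 0.405 CPM in control, with an edgeR adjusted p of 0.168. DISP3, 71947 bases from LINC01647, was at 1.39 CPM in knockdown and 0.476 CPM in control, with an edgeR adjusted p of 0.125. LDHB, a subunit gene of lactate dehydrogenase beside SPX, was at 403 CPM in knockdown and 506 CPM in control, with an edgeR adjusted p of 0.216.

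Genes of the silencing machinery were examined as a list: DNA methyltransferases, H3K9 methyltransferases, the HUSH complex and Polycomb, with cofactors such as histone deacetylases. The list also held TET enzymes, which act against DNA methylation, so a higher or lower gene in it need not mean more or less silencing. Of 50 genes, 49 were tested and 0 passed in edgeR. At an unadjusted edgeR p under 0.05 were 8, with 2 higher (TET3 and JARID2) and 6 lower (UHRF1, DNMT1, EHMT2, KDM1A, HDAC1 and MBD3). Of all 19040 tested genes, 3138 were at an unadjusted p under 0.05 in edgeR, 1861 higher and 1277 lower. The total share was alike, but in the list more of these genes were lower and over all genes more were higher. The median log2 fold change was 0.00 in the list and 0.05 in all genes. UHRF1, which recruits DNA methyltransferase 1 to replicated DNA, was at 64.8 ± 5.18 CPM in knockdown and 89.5 ± 2.27 CPM in control (SD, n = 3 each), with an edgeR adjusted p of 0.123. DESeq2 called this 1 gene, at -0.50 on the log2 scale and an adjusted p of 0.0352. DNMT1, the maintenance methyltransferase itself, was at 140 CPM in knockdown and 176 CPM in control, with an edgeR adjusted p of 0.216. The part of these genes in the values above was not tested.

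Of the lists of tissue-restricted genes, few members were counted in knockdown alone. Of 36 germline and cancer-testis genes silent in control, 0 had 2 counts in each knockdown library, and of 11 silent muscle genes 0 did. TDRD9, a germline gene just outside the silent rows, had 10, 18 and 11 counts in knockdown and 0, 0 and 2 in control. Of 348 silent olfactory receptor genes 1 did, namely OR2A42, and of 34 silent beta-defensin genes 0 did. Of 19 silent neuronal genes 1 did, SNAP25, with 9, 2 and 17 counts in knockdown and 0 in each control library. Of 10 silent immune genes 1 did, GNLY, and of 9 silent hepatic genes 1 did, APOA1. Set beside 3.79% of protein-coding rows silent in control, and 1.4% of all silent rows, these counts are too small to rank the lists. Of 10 silent erythroid genes 2 did, HBA1 and HBA2, which the rule leaves out, while HBB was at 0 in all libraries.

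The same lists were read as markers of other cells. Summed neuronal markers were at 104 to 126 CPM in knockdown and 130 to 176 CPM in control, with 15 of 34 genes at 0 in all libraries and 0 of 12 tested genes past the test. INA was the largest part of that sum in all libraries, with NEFH next in all but control library 1. TUBB3 had 349, 234 and 619 counts in knockdown and 2264, 386 and 364 in control, so control library 1 stood apart. The tested neuronal genes lay on both sides without passing. RBFOX3, SYP, SYT1, NEFH, MAP2, KCNC1 and SLC17A7 were higher in knockdown, and INA, TUBB3, GRIN1, GAD1 and CAMK2A were lower. SLC17A7 was at 1.85 CPM in knockdown and 0.968 CPM in control, with an edgeR adjusted p of 0.208. CAMK2A was at 0.612 CPM in knockdown and 0.901 CPM in control, with an edgeR adjusted p of 0.449. Summed endothelial markers were at 83.5 to 111 CPM in knockdown and 109 to 116 CPM in control, with 2 of 13 genes at 0. Summed stromal markers were at 49.8 to 71.7 CPM in knockdown and 48.1 to 53.6 CPM in control, where PDGFRB was 1 of 5 tested genes past the test. Germline markers summed to 267 to 280 CPM in knockdown and 251 to 276 CPM in control. MAGEA2, MAGEA3, MAGEA6 and MAGEA12, with log2 fold changes of -0.11 to 0.09, made up most of that sum. SYCP2, TEX15, TDRD9, PIWIL2, STAG3 and MAGEA1 were higher in knockdown without passing. Of the 11 tested germline genes 1 passed. This was TEX14, a gene of germ-cell bridges, with 53, 51 and 62 counts in knockdown and 13, 10 and 12 in control and an edgeR adjusted p of 0.0167. Immune markers summed to 98.2 to 125 CPM in knockdown and 89.7 to 104 CPM in control. Erythroid markers summed to 3.79 to 7.20 CPM in knockdown and 0.0523 to 0.187 CPM in control, through HBA1 and HBA2. The part of other cells in the 35 genes was not tested.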

How the data were processed

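RNA of 3 knockdown and 3 control PC9 libraries was sequenced on an Illumina platform and reads were counted per gene, per the labels' protocols. No source names the aligner or the counter. Estimated counts, TPM and FPKM were deposited for each gene. The authors' deposited counts are whole numbers, but TPM and length show them to be expected counts rounded up: of 10833 values of 1, 99.9% were, with a median of 0.362 before rounding, so a 1 can be less than 1 read. The TPM and FPKM were made by the authors; TPM was used for levels and FPKM was not used. The submitters' processing notes name hg19, but 96.8% of 57836 shared genes had GRCh38 positions of GENCODE 29.

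Genes were filtered by filterByExpr at 10 counts, scaled by TMM and tested with edgeR 4.0.16 in R 4.3.3 (quasi-likelihood F-test, Benjamini-Hochberg at 0.05); 34 of the 35 genes passed the filter, all but LINC00552. The biological coefficient of variation was 22.9%, and libraries of a group differed beyond sampling noise (chi-square per degree of freedom 32.7 to 83.5). The test was checked on simulated data. Members and lists were chosen with earlier results of these data known, and partners after the members' values were seen. Named genes were the protein-coding members with a regular symbol, the 12 other members of highest mean CPM, 5 just inside and 5 just outside the thresholds, and neighbours and silencing genes past the test; others were named as partners, list genes or examples after their values were seen. Alternatives were DESeq2 1.42.0, other scalings, no filter, the replicate block, other thresholds and leaving out each library. Sequences came from RefSeq. Figures used matplotlib 3.10.9 in Python 3.11.15.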

Additional observations from a re-analysis of the deposited data

How the results depend on the processing

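The rule chose 57 genes at up to 2 counts in control, 108 at 5 counts and 15 at 20 counts in knockdown, 14 when held to protein-coding genes, and 46 to 66 without 1 library, against 35 as reported. With 0 counts in control it chose 31, and on scaled counts 32. Genes past the test numbered 223 with edgeR, 147 without a filter, 701 with DESeq2 (483 higher and 218 lower, against 209 and 14), 34 with the replicate block and 64 to 114 without 1 library. Neighbours past the test numbered 4, 2 with the replicate block, 6 with DESeq2 and 3 in each fit without 1 library; the silencing list had 0, and 1 with DESeq2. The cause of these differences was not tested. Deviations of same-numbered libraries correlated at 0.0083, -0.079 and -0.026, which does not pair the libraries. Scaling by library size alone moved the median log2 fold change of all genes by 0.12. No neighbour past the test changed direction. At 10 counts, depth limits the level of most of the 35 genes.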
